A study of Mus musculus with 6 samples.

Results

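The genes described here are the cyclins, the cyclin-dependent kinases (CDKs), the CDK inhibitors and the genes of DNA replication and mitosis, measured in wasting skeletal muscle of tumor-bearing mice. They were found by gene symbol, with no value in the rule: the cyclin genes (Ccn followed by a letter and, in most, a number), the Cdk and Cdkn genes, the E2f factors, the Mcm genes, the Aurora kinases, Bub1, Bub1b, Plk1, Mki67 and Top2a, with Cdkn1a and Ccng1 left aside. The rule found 74 genes among 18782 named genes on the array, which had 21212 probe sets, each standing for 1 gene. Pcna, Ccnb1 and Cdkn2d also match the rule and were not analysed here.

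The study examined which genes change in muscle during cancer cachexia, the loss of muscle and body mass that accompanies many tumors. Male CDF1 mice, 8 weeks of age at the start, received either colon-26 (C26) adenocarcinoma cells in PBS/matrigel under the skin of both flanks or 150 µL of PBS/matrigel alone. Gastrocnemius and plantaris muscles were removed 25 days later from 4 C26 mice and 3 control mice, and RNA from 2 to 3 muscles of the same group was pooled for each of 6 Affymetrix Mouse Gene 1.0 ST arrays, 3 per group. A tumor grown from an injected cell line at 1 late time point is the only model here, and the labels name no genetic change in either group.

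Values below are log2 RMA values, listed as control replicates 1, 2 and 3 and C26 replicates 1, 3 and 4, and changes are C26 minus control on the log2 scale with the standard error from limma. Genes rose or fell, in these terms, if limma gave an adjusted p of 0.05 or less (Benjamini-Hochberg, over all 21212 probe sets) together with a change of 1.5-fold or more, or 0.585 on the log2 scale. The sources used here do not assign muscles to pools, and pools of a group may share a mouse, so these p-values measure the spread between pools. All 13 muscle fiber markers were above the background level of 3.82, set as the 95th percentile of 1255 olfactory and vomeronasal receptor probe sets. Arrays of the same group correlated at 0.994 to 0.996 and arrays of different groups at 0.976 to 0.981. Whole muscle was measured, so fewer cells of a type and less RNA per cell cannot be told apart.

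Cyclins are proteins whose amounts rise and fall and which switch on their partner kinases. D-type cyclins with Cdk4 and Cdk6 carry growth signals to the retinoblastoma (Rb) family, E- and A-type cyclins with Cdk2 drive entry into DNA synthesis, and B-type cyclins with Cdk1 drive mitosis. A second set of cyclins and CDKs is known mainly for acting on transcription by RNA polymerase II and on splicing. Muscle fibers have left the cell cycle for good, and in adult muscle the cells that can divide are satellite cells, fibroblasts, endothelial cells and blood-derived cells.

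Of the 74 members, 6 fell and 4 rose in C26 muscle. The members that fell were the D-type cyclins Ccnd1 and Ccnd2, the Mediator kinase Cdk19, the cyclin Ccnj, the mitotic kinase Aurka and the replicative helicase subunit Mcm2. Those that rose were Ccnl1, a cyclin of the splicing machinery, Ccng2 and Ccni, both cyclins outside the core cycle, and Cdkn2aipnl, a relative of a Cdkn2a partner. The 4 members that rose made up 5.41% of the members, against 5.94% of all probe sets. The 6 that fell made up 8.11% of the members, against 4.95% of all probe sets. By adjusted p alone, 12 members (16.2%) were higher and 16 (21.6%) lower, where 14.3% and 15.8% of all probe sets were. The pools of the 2 groups did not overlap, with C26 higher, for 14 members (18.9%, against 19.3% of all probe sets) and, with C26 lower, for 24 members (32.4%, against 24.6%). The median change was −0.07 over the members and −0.05 over all probe sets, so the members as a whole lay close to the rest of the array. Of the 74 members, 64 were above the background level in at least 1 group, and 56 were above it on all 6 arrays.

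**Figure D1:**
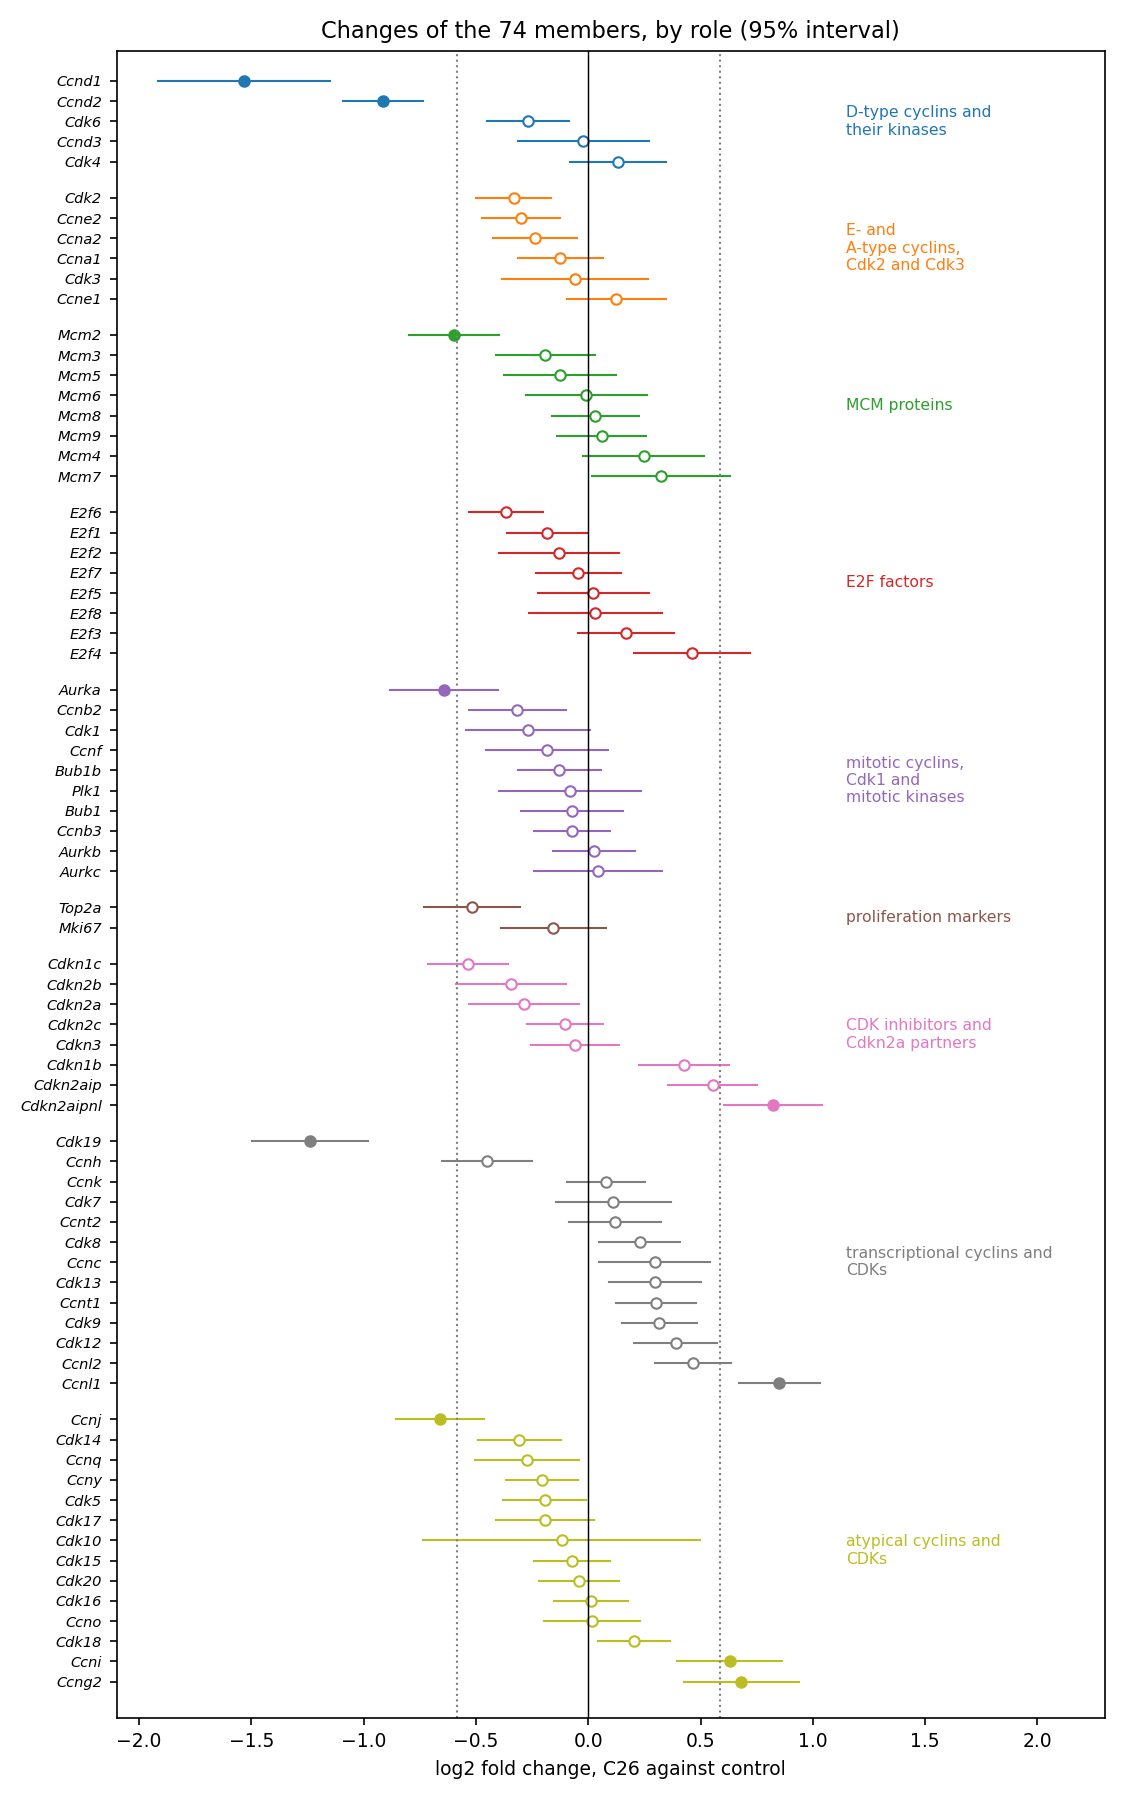
Change of each of the 74 members in C26 against control muscle, on the log2 scale along the horizontal axis, grouped by role and ordered by size within a role. Points are limma estimates from 3 control and 3 C26 pools, lines their 95% intervals, filled points the 6 members that fell and the 4 that rose, and dotted lines a 1.5-fold change (0.585). Ccnd1, Cdk19 and Ccnd2 lie farthest to the left and Ccnl1 and Cdkn2aipnl farthest to the right.

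Of the D-type cyclins, Ccnd1 and Ccnd2 fell and Ccnd3 did not pass the test. Ccnd1, the cyclin that links growth factor signals to Cdk4 and Cdk6, measured 6.65, 6.10 and 6.31 in the control pools and 4.63, 5.13 and 4.70 in the C26 pools. Every C26 pool lay below every control pool, by at least the distance from 5.13 to 6.10. Ccnd1 thus fell by 1.53 (SE 0.17), or 2.89-fold, with an adjusted p of 0.000241 from limma. Ccnd2, which is also a growth-responsive D-type cyclin, measured 8.06, 8.10 and 7.92 in control and 7.10, 7.11 and 7.11 in C26 pools. The C26 pools were almost equal to each other and all below the controls, and Ccnd2 fell by 0.92 (SE 0.08), or 1.89-fold (limma adjusted p = 6.78e-05).

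Ccnd3, the D-type cyclin best known for its high level in differentiated muscle cells, was at about the same level in both groups. Its values were 6.07, 5.75 and 6.05 in control and 5.89, 6.16 and 5.75 in C26 pools, so the groups overlapped. The change was −0.02, with a 95% interval of −0.31 to 0.27, and it took the other sign, 0.04, with the arrays centred on their medians. That interval lies outside the changes of Ccnd1 and Ccnd2, which were chosen for this contrast after their values were seen. The kinase Cdk4 was at 8.80, 8.82 and 8.74 in control and 8.76, 8.93 and 9.07 in C26 pools, again overlapping, with a change of 0.13 (95% interval −0.08 to 0.35). Cdk6, its close relative, was lower by less than 1.5-fold, at 5.15, 5.26 and 5.34 against 5.02, 5.00 and 4.92 with no overlap (−0.27, SE 0.08, limma adjusted p = 0.0356). Among these 5 genes 2 fell, none rose and the median change was −0.27, where 4.95% of all probe sets fell and 5.94% rose.

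**Figure D2:**
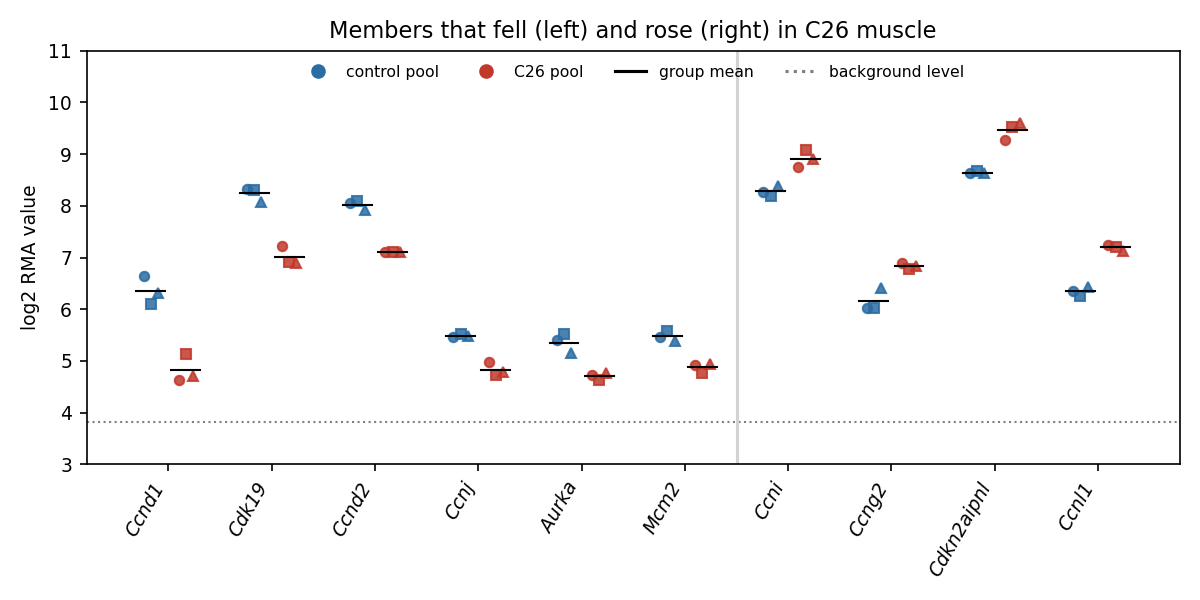
Log2 RMA values (vertical axis) of the 6 members that fell, left of the grey line, and the 4 that rose, right of it, with control pools in blue and C26 pools in red, 3 of each. Black bars are group means, marker shapes replicates within a group, and the dotted line the background level of 3.82, and in none of the 10 genes do the groups overlap.

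Genes of entry into DNA synthesis changed by less than 1.5-fold. All of them but Cdk2 lay near the background level of 3.82, where changes are compressed. Neither the E- and A-type cyclins nor Cdk2 and Cdk3 rose or fell by the test, and their 6 changes had a median of −0.18. Cdk2, the kinase of this step, was at 5.93, 5.94 and 5.87 in control and 5.52, 5.62 and 5.62 in C26 pools, all 3 C26 pools lower (−0.33, SE 0.07, limma adjusted p = 0.00914). Ccne2, a cyclin that activates Cdk2, was lower as well, at 4.31 to 4.37 in control and 3.95 to 4.11 in C26 pools (−0.30, limma adjusted p = 0.0172). Its paralog Ccne1 overlapped between groups (3.73 to 3.94 against 3.87 to 4.12), with a change of 0.12 and a 95% interval of −0.10 to 0.35. Ccna2, the cyclin of S phase and G2, had no overlap but an adjusted p of 0.0599 in limma, at 3.99 to 4.07 in control and 3.68 to 3.87 in C26 pools. The C26 values of Ccna2 lie at the background level.

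The MCM proteins form the helicase that opens DNA at replication origins, with Mcm2 to Mcm7 as its ring and Mcm8 and Mcm9 as relatives used in DNA repair. Of the 8 genes, Mcm2 fell, none rose, and the median change was 0.01, where 4.95% of all probe sets fell and 5.94% rose. Mcm2 measured 5.47, 5.59 and 5.38 in control and 4.93, 4.77 and 4.94 in C26 pools. All C26 pools were lower, and Mcm2 fell by 0.60 (SE 0.09), or 1.51-fold, with a limma adjusted p of 0.00118. It is the member nearest to the fold minimum from above, and its change was under 1.5-fold without control replicate 2 (−0.54), without C26 replicate 3 (−0.54), and with median centring (−0.53), quantile normalization (−0.54) or cyclic loess (−0.54) of the arrays. With the replicate number as a block, where the change rests on replicates 1 and 3 only, it was −0.57. The other subunits of the ring did not pass the test. Mcm7, at 5.18 to 5.68 in control and 5.60 to 5.89 in C26 pools, had a change of 0.33 with a 95% interval of 0.02 to 0.63, and Mcm4 one of 0.25 (−0.02 to 0.51). Mcm3 and Mcm5 had changes of −0.19 and −0.13, and Mcm6 was under the background level in both groups.

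Mitotic genes were at or near the background of the array. Of the 10 mitotic cyclins and kinases, 5 (Bub1, Bub1b, Ccnb3, Ccnf and Plk1) were under the background level in both groups, and so was Top2a. Aurka, the kinase that matures the spindle poles, was well above it and fell. It measured 5.41, 5.51 and 5.14 in control and 4.74, 4.63 and 4.77 in C26 pools, with every C26 pool below every control pool. Aurka fell by 0.64 (SE 0.11), or 1.56-fold (limma adjusted p = 0.00206). Its change was under 1.5-fold without control replicate 2 (−0.56) and with median centring, quantile normalization or cyclic loess (−0.58 in each). Aurkb, the kinase of chromosome separation, overlapped between groups at 4.35 to 4.49 and 4.40 to 4.55, with a 95% interval of −0.16 to 0.21.

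None of the genes most used as signs of dividing cells rose. Mki67, the antigen of the Ki-67 proliferation stain, was at 3.89, 4.06 and 4.22 in control and 3.78, 3.96 and 3.96 in C26 pools, overlapping and close to background (−0.15, 95% interval −0.39 to 0.08). Cdk1, the mitotic kinase, was at 3.76, 3.90 and 4.20 in control and 3.78, 3.72 and 3.55 in C26 pools, with all C26 pools under the background level (−0.27, limma adjusted p = 0.138). Ccnb2, a B-type cyclin that activates it, showed no overlap, at 3.98, 3.90 and 4.18 against 3.79, 3.71 and 3.62 (−0.32, limma adjusted p = 0.035). Top2a, the topoisomerase of dividing cells, was at 3.16 to 3.40 in control and 2.63 to 2.81 in C26 pools, a change of −0.52 (limma adjusted p = 0.00323) that lies wholly under the background level. With the replicate number as a block (replicates 1 and 3 only) the change of Top2a was −0.59, past the fold minimum. Near the floor of an array a change is compressed, so these values bound the signal and not the number of dividing cells.

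**Figure D3:**
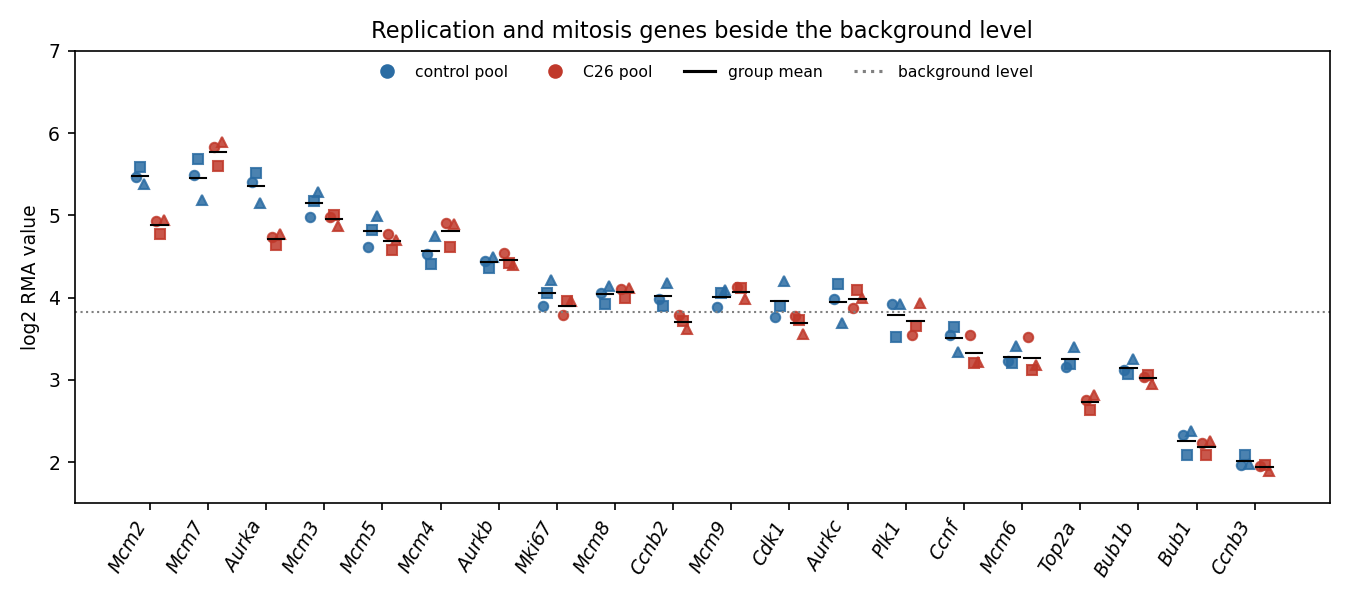
Log2 RMA values (vertical axis) of the 8 MCM genes, the 10 mitotic genes, Mki67 and Top2a in 3 control pools (blue) and 3 C26 pools (red), ordered by control mean, with black bars for group means. Mcm2 and Aurka stand above the dotted background level of 3.82 with separate groups, and the other mitotic genes lie close to it or under it.

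The promoters of Mcm2 and Aurka, the replication and mitosis genes that fell, are shown because genes of these classes often share E2F, CCAAT and CHR (cell cycle genes homology region) letters ahead of their start. The sequences are RefSeq's on GRCm38.p6, 250 bases up to the start, 5′ to 3′ on the gene's strand. Mcm2 lies on the minus strand at chr6:88898781-88899030, and the capitals mark a CCAAT box read on the opposite strand and a CHR element.
Mcm2: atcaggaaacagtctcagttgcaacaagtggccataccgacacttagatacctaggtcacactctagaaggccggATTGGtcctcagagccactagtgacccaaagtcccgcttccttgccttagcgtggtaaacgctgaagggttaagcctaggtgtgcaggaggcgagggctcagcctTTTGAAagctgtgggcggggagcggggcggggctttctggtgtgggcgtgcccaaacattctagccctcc
Aurka lies on the minus strand at chr2:172370571-172370820, and the capitals mark its CCAAT boxes. A CHR element of Aurka begins 33 bases after the start, beyond the printed stretch.
Aurka: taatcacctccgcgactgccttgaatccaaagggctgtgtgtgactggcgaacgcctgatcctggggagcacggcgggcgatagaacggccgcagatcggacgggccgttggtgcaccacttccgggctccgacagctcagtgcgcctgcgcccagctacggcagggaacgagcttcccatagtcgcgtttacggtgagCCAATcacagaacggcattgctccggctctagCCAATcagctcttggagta
Motifs were sought on both strands from 250 bases before to 50 after the start, in 66 promoters of 59 members and in all 32851 promoters. The CCAAT box (CCAAT) was in 60.6% of the members' promoters and 37.4% of all, and the CHR element (TTTGAA) in 24.2% and 17.9%. The E2F element (TTTGGCGC or TTTCGCGC) was in 10.6% of the members' promoters and 0.813% of all. It was found for Mcm3, Mcm5, Mcm6, Mcm7 and Mcm8 among 7 MCM genes with a promoter, and for Cdk1 and E2f2. None of these 7 genes rose or fell, and the window of Mcm2 holds no match to the E2F letters. The motifs do not overlap each other in the printed stretches, and a match is a run of letters and not a measured site.

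E2F factors are the transcription factors that the Rb family holds back, and which switch on replication genes once released. None of the 8 rose or fell, and the median change was −0.01. E2f4, the E2F that represses genes in resting cells, was higher by less than 1.5-fold, at 8.30, 8.27 and 8.16 in control and 8.46, 8.82 and 8.84 in C26 pools (0.46, SE 0.11, limma adjusted p = 0.0144). Its lowest C26 pool, replicate 1, was still above every control pool, and without that pool the change reached 0.59. E2f6, a repressor that does not bind Rb proteins, was lower, at 8.56 to 8.66 in control and 8.23 to 8.30 in C26 pools (−0.37, limma adjusted p = 0.00543). The activators differed less. E2f1 was under the background level in both groups, E2f2 had a 95% interval of −0.40 to 0.14 and E2f3 one of −0.05 to 0.38.

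Some partners of the E2F factors rose. In a list of 15 genes of the Rb family, E2F partners and Myc network, 4 rose and 1 fell, with a median of 0.40. Over all probe sets 5.94% rose and 4.95% fell. Tfdp2, a DP protein that pairs with E2F factors to bind DNA, measured 7.00, 6.96 and 7.00 in control and 9.11, 9.44 and 9.30 in C26 pools. The C26 pools were all far above the controls, and Tfdp2 rose by 2.29 (SE 0.09, limma adjusted p = 2.39e-06). The other DP protein, Tfdp1, measured 7.75, 7.73 and 8.17 in control and 7.09, 7.21 and 7.49 in C26 pools and fell by 0.62 (SE 0.14, limma adjusted p = 0.0119). Over 16 alternative fits that kept the 1.5-fold minimum, the number of genes in the list that fell ranged from 0 to 2. Examples are 0 without control replicate 3, without C26 replicate 1 and with median centring, and 2 without control replicate 2. These examples do not cover every setting in which the fall of Tfdp1 may be lost.

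Rbl2, the pocket protein p130 that binds E2f4 in resting cells, rose by 0.89 (SE 0.09), from 6.70 to 6.80 in control to 7.57 to 7.79 in C26 pools (limma adjusted p = 0.000123). Lin52, a subunit of the DREAM complex in which p130 works, rose by 0.89 (SE 0.12), from 4.98 to 5.34 to 5.91 to 6.21 (limma adjusted p = 0.000607). Of the list's other Lin genes, Lin54 and Lin37 were higher by less than 1.5-fold (0.52 and 0.43, limma adjusted p = 0.00102 and 0.014). Lin9 went the other way (−0.52, limma adjusted p = 0.0177), at 3.92 to 4.43 in control and 3.55 to 3.73 in C26 pools, the latter under the background level. Rb1 itself was higher by less than 1.5-fold (6.75 to 6.83 against 7.06 to 7.28, 0.40, limma adjusted p = 0.00694), and the third pocket protein, Rbl1, overlapped between groups (−0.15). Myc, a growth factor-induced transcription factor, rose by 1.59 (SE 0.13), from 5.51 to 5.90 in control to 7.06 to 7.39 in C26 pools (limma adjusted p = 5.07e-05). Ccnd1, Ccnd2 and Mcm2 fell in the same pools.

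Among the CDK inhibitors none rose or fell. The INK4 inhibitors block Cdk4 and Cdk6, and the Cip/Kip inhibitors act on several cyclin and CDK pairs. Cdkn1c (p57), a Cip/Kip inhibitor of differentiating cells, measured 7.70, 7.74 and 7.60 in control and 7.20, 7.08 and 7.14 in C26 pools. All C26 pools were lower, by less than 1.5-fold (−0.54, SE 0.08, limma adjusted p = 0.00109), and with quantile normalization its change of −0.60 passed the minimum. Cdkn1b (p27), an inhibitor of resting cells, went the other way, at 7.08, 7.09 and 7.28 in control and 7.68, 7.55 and 7.51 in C26 pools (0.43, SE 0.09, limma adjusted p = 0.00656). The third of the family, Cdkn1a (p21), was left aside by the rule and rose by 2.81 (SE 0.17), from 6.52 to 7.02 in control to 9.23 to 9.79 in C26 pools (limma adjusted p = 1.49e-05).

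The INK4 gene Cdkn2b (p15) was lower by less than 1.5-fold, at 5.12 to 5.51 in control and 4.90 to 5.02 in C26 pools (−0.34, limma adjusted p = 0.0417). Cdkn2a, which encodes p16 and Arf, had separate groups (4.47 to 4.76 against 4.13 to 4.40) and a limma adjusted p of 0.0794. The symbol rule also brought in a pair of genes that are not CDK inhibitors. Cdkn2aip (CARF) encodes a protein that binds Arf, and Cdkn2aipnl encodes one resembling its amino-terminal end. Cdkn2aipnl measured 8.63, 8.67 and 8.63 in control and 9.28, 9.52 and 9.60 in C26 pools, all C26 pools higher, and rose by 0.82 (SE 0.10), or 1.77-fold (limma adjusted p = 0.000328). Cdkn2aip was at 5.67 to 5.86 in control and 6.22 to 6.42 in C26 pools and was the member nearest to the fold minimum from below (0.55, limma adjusted p = 0.0016). It passed the minimum without control replicate 1 (0.60), without C26 replicate 4 (0.60) and with median centring (0.62). It also passed with the replicate number as a block (0.60), which rests on replicates 1 and 3 only. Leaving the pair out, added after the values were seen, left 3 members that rose.

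Among the 13 cyclins and CDKs of transcription and splicing, Ccnl1 rose, Cdk19 fell, and the median change was 0.30, against −0.05 over all probe sets. By adjusted p alone 6 of the 13 were higher and 2 lower, where 14.3% and 15.8% of all probe sets were. The groups did not overlap for 7 with C26 higher and 2 with C26 lower, where this held for 19.3% and 24.6% of all probe sets. Ccnl1, a cyclin that binds Cdk11 and acts on splicing, measured 6.35, 6.26 and 6.43 in control and 7.25, 7.21 and 7.13 in C26 pools. Every C26 pool was higher, and Ccnl1 rose by 0.85 (SE 0.08), or 1.80-fold (limma adjusted p = 0.000102). Its paralog Ccnl2 was higher by less than 1.5-fold, at 7.58, 7.49 and 7.59 in control and 7.96, 8.04 and 8.06 in C26 pools (0.46, SE 0.07, limma adjusted p = 0.00177).

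Several genes of transcription elongation were higher by less than 1.5-fold. Cdk9, the kinase of P-TEFb that releases paused RNA polymerase II, was at 6.49 to 6.61 in control and 6.85 to 6.92 in C26 pools (0.32, limma adjusted p = 0.0116). Its cyclin Ccnt1 was at 6.24 to 6.35 and 6.51 to 6.66 (0.30, limma adjusted p = 0.018). The elongation kinases Cdk12 and Cdk13 were higher by 0.39 and 0.30 (limma adjusted p = 0.00691 and 0.0359), with no overlap in either. Their cyclin Ccnk did not pass the test, with a 95% interval of −0.09 to 0.25. Of the kinase that starts transcription, Cdk7 had an interval of −0.14 to 0.37, while its cyclin Ccnh was lower by less than 1.5-fold, at 6.55 to 6.66 in control and 6.02 to 6.26 in C26 pools (−0.45, limma adjusted p = 0.00468).

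The Mediator kinases Cdk8 and Cdk19, close paralogs that both use cyclin C (Ccnc), lay on opposite sides of the controls. Cdk19 measured 8.33, 8.31 and 8.08 in control and 7.21, 6.90 and 6.89 in C26 pools. All C26 pools were lower than all controls, and Cdk19 fell by 1.24 (SE 0.11), or 2.36-fold (limma adjusted p = 9.8e-05). Cdk8 measured 7.66, 7.72 and 7.54 in control and 7.82, 7.89 and 7.89 in C26 pools, with no overlap and C26 higher (0.23, SE 0.08, limma adjusted p = 0.0596). Set against the mean of the controls, the shift of Cdk8 exceeded that of Cdk19 by 1.20, 1.59 and 1.60 in the C26 pools and stayed between −0.07 and 0.06 in the control pools. This pair was singled out after its values were seen, and the difference is given without a test. Ccnc had a change of 0.30 (95% interval 0.05 to 0.54, limma adjusted p = 0.0731).

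**Figure D4:**
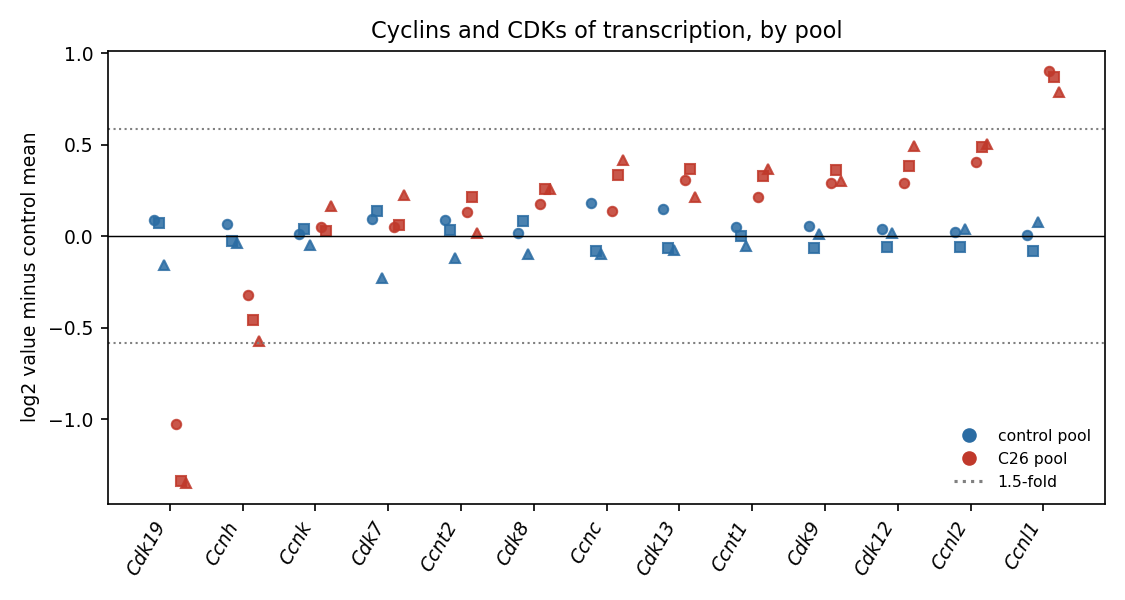
Log2 RMA value minus the control mean (vertical axis) for the 13 cyclins and CDKs of transcription and splicing by pool (control in blue, C26 in red, 3 of each), ordered by change, with dotted lines at 1.5-fold (0.585). Cdk19 and Ccnh lie below 0 in every C26 pool, Ccnl1 lies above the upper line in every C26 pool, and 7 genes have all C26 pools above all control pools.

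The promoter of Ccnl1, the member with the largest rise, is shown because it holds a whole cAMP response element (CRE, TGACGTCA), a sequence that CREB and ATF factors can bind, beginning 18 bases before the start. It lies on the minus strand at chr3:65958250-65958499 (RefSeq, GRCm38.p6), with the CRE in capitals.
Ccnl1: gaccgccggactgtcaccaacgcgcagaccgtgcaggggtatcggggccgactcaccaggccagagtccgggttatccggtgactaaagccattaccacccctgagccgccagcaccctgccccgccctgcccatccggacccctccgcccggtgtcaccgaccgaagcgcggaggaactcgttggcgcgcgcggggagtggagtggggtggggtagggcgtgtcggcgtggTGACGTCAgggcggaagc
The CRE was in 1.79% of all 32851 promoters and in those of 3 members, Ccnl1, Cdkn2b and Mcm5 (4.55% of the members' promoters). Of these 3 genes Ccnl1 rose, Cdkn2b was lower by less than 1.5-fold (−0.34) and Mcm5 had a 95% interval of −0.38 to 0.12. No binding was measured on these arrays.

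Of the 14 remaining cyclins and CDKs, which lie outside the core cycle, 2 rose and 1 fell, with a median of −0.10. Of all probe sets 5.94% rose and 4.95% fell. Ccng2, an unusual cyclin associated with leaving the cell cycle, measured 6.03, 6.02 and 6.40 in control and 6.89, 6.77 and 6.83 in C26 pools. Control replicate 3 was the highest control and still below every C26 pool, and Ccng2 rose by 0.68 (SE 0.11), or 1.60-fold (limma adjusted p = 0.00211). Ccni, an atypical cyclin found in tissues that do not divide, measured 8.27, 8.19 and 8.39 in control and 8.75, 9.09 and 8.90 in C26 pools, again with no overlap. Ccni rose by 0.63 (SE 0.10), or 1.55-fold (limma adjusted p = 0.00196), and its change was under 1.5-fold without control replicate 2 (0.58), without C26 replicate 3 (0.54) and with quantile normalization (0.53). Ccng1, the paralog of Ccng2 and a p53 target left aside by the rule, went the other way and fell by 0.61 (SE 0.10), from 11.56 to 11.63 in control to 10.87 to 11.18 in C26 pools (limma adjusted p = 0.00162).

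Ccnj, a cyclin known mainly from early development, measured 5.46, 5.53 and 5.48 in control and 4.97, 4.73 and 4.79 in C26 pools. All C26 pools were lower, and Ccnj fell by 0.66 (SE 0.09), or 1.58-fold (limma adjusted p = 0.000607). Cdk14, a kinase of Wnt signaling that uses cyclin Y, was lower by less than 1.5-fold, at 5.07 to 5.27 in control and 4.83 to 4.94 in C26 pools (−0.31, limma adjusted p = 0.0209). Its cyclin Ccny showed no overlap (8.05 to 8.10 against 7.83 to 7.91) and a limma adjusted p of 0.0562. Cdk5, a kinase of neurons and muscle, was at 6.82 to 6.94 in control and 6.59 to 6.78 in C26 pools (−0.19, 95% interval −0.38 to −0.01). It did not pass the test (limma adjusted p = 0.111). Cdk16 was nearly the same in both groups (9.31 to 9.40 against 9.34 to 9.40, 95% interval −0.15 to 0.18), while Cdk10 varied so widely between pools (4.64 to 5.41 and 4.22 to 5.14) that its interval ran from −0.73 to 0.50.

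Ccng2 and Ccni, both of which rose, lie close together on chromosome 5, and their promoters are shown side by side for that reason (RefSeq, GRCm38.p6). Ccng2 is on the plus strand at chr5:93267323-93267572 and holds none of the motifs sought. Ccni is on the minus strand at chr5:93206496-93206745, with capitals for a FoxO element (TGTTTAC) that begins 27 bases before the start and for CHR elements read on the opposite strand.
Ccng2: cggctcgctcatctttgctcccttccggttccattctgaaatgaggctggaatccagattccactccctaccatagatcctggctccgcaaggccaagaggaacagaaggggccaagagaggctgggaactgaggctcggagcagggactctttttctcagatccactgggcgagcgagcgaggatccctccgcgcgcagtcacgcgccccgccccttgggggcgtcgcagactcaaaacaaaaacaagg
Ccni: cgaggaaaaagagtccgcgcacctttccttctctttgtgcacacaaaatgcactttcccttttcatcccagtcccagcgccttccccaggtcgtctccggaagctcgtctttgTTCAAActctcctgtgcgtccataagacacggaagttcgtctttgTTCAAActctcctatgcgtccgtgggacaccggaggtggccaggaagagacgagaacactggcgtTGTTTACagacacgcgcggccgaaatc
The FoxO element was in 3.65% of all promoters and in those of 3 members, Ccni, Ccnd3 and Mcm7 (4.55% of the members' promoters). Ccnd1, Ccnd2, Cdk19, Ccnj and Cdkn2aipnl are not shown. Of the genes measured around the pair, 2010109A12Rik between them had a change of −0.12 (limma adjusted p = 0.438). Septin11 and Sowahb, both on the Ccni side, had changes of −0.10 and −0.23 (limma adjusted p = 0.347 and 0.14). The neighbors looked at beyond Ccng2 were not on the array.

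Genes that act with the members at replication origins and forks differed in both directions, mostly by less than 1.5-fold. Of 37 such genes, 1 rose, none fell and the median was 0.01, with 9 under the background level. By adjusted p alone 8 were higher and 5 lower (14.3% and 15.8% of all probe sets), and the groups did not overlap for 13 with C26 higher and 8 with C26 lower (19.3% and 24.6% of all probe sets). Gins1, of the helicase complex, the DNA ligase Lig1 and the polymerase subunit Pold3 were higher by 0.57, 0.55 and 0.53 (limma adjusted p = 0.0165, 0.00582 and 0.00435), and Rfc2, of the clamp loader, had a change of −0.42 (limma adjusted p = 0.00885). These 4 were named after their values were seen. Orc2, a subunit of the origin recognition complex, rose by 0.62 (SE 0.08), from 5.82 to 5.89 in control to 6.38 to 6.59 in C26 pools (limma adjusted p = 0.000648). The number that rose was 2 to 3 without control replicate 2, control replicate 3, C26 replicate 1 or C26 replicate 3, and 4 with median centring. Of 8 measured genes of nucleotide supply, 1 fell and none rose, with a median of −0.32, where 4.95% of all probe sets fell and 5.94% rose. Dut, which removes dUTP, fell by 0.84 (SE 0.10), from 4.74 to 5.07 in control to 4.04 to 4.16 in C26 pools (limma adjusted p = 0.000408). Rrm1, the large subunit of ribonucleotide reductase, was lower by less than 1.5-fold (−0.43, limma adjusted p = 0.00386).

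Some fibroblast and tendon cell markers fell in the same pools, where 4.95% of all probe sets fell and 5.94% rose. Among 12 measured fibroblast and fibro-adipogenic markers 6 fell, led by the collagens Col1a1 (−2.61) and Col1a2 (−2.29), and none rose. Pdgfra, which defines fibro-adipogenic cells, and Pi16 were higher by less than 1.5-fold (0.50 and 0.41, limma adjusted p = 0.00135 and 0.00481), and Dcn had a change of 0.03 (limma adjusted p = 0.835). The summed level of this list on the linear scale was 7807.2 to 8843 in control and 4099.9 to 4744.5 in C26 pools, with all 12 above background. Among 9 tendon cell markers 6 fell, with sums of 3071.4 to 3566.3 and 1725 to 1739, also with all above background, while Thbs4 was higher by less than 1.5-fold (0.43, limma adjusted p = 0.00415). Both kinds of cell can divide and use Ccnd1 and Ccnd2, and their part in the fall of these genes was not tested. Among 16 satellite cell and myoblast markers Myod1 (−1.53) and Cd34 (−0.66) fell, Sdc4 (1.40) rose and Pax7, which defines satellite cells, had a change of −0.13 (limma adjusted p = 0.233). Cd34 is also counted among the fibroblast markers that fell. Over the 16 alternative fits, 0 to 2 of these satellite cell and myoblast markers fell and 0 to 2 rose, with 2 that rose without C26 replicate 3. The list's median change was −0.12, with Calcr under background. Its summed level was 4475.3 to 4711.5 in control and 5325.6 to 5392.6 in C26 pools, but Des, which muscle fibers also express, made up most of it. Without Des and Sdc4, left out after their values were seen, the sum was 1544.2 to 1575.9 in control and 1187.7 to 1254.2 in C26 pools.

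Macrophage and neutrophil markers rose in part, where 5.94% of all probe sets rose and 4.95% fell. Among 17 macrophage markers 8 rose and none fell, with sums of 1065.6 to 1186.5 in control and 1720.5 to 1791.8 in C26 pools, and Ccr2 under background. The defining marker Adgre1 had a change of 0.00, while Itgam rose by 1.71. Among 15 neutrophil markers 9 rose, with sums of 199.7 to 216.4 and 1342 to 1849.1, and Camp, Ltf, Ly6g, Mpo and Ngp under background. Lcn2 (5.40) carried most of the C26 sum, and without it, left out after its values were seen, the sums were 171.9 to 183.2 and 330.4 to 388.0. With the fit limited to the brighter probe sets, those over the median level, 2 neutrophil markers rose. None of 10 lymphocyte markers rose or fell, 8 being under background, with sums of 100.8 to 125 and 97.9 to 107.6. Among 12 endothelial markers, all above background, Vwf (0.69) rose and Kdr (−1.21) fell, with sums of 2037.4 to 2129.9 and 2081 to 2254.4, and none rose without C26 replicate 1. Among 5 erythroid markers 2 rose, with sums of 210 to 258.7 and 361.5 to 514.3, Tspo2 under background, and 1 rose without control replicate 3 or C26 replicate 3. The muscle fiber markers summed to 62742.1 to 64217.6 in control and 53235.9 to 56405 in C26 pools, and 2 of them, Casq1 (−1.68) and Mylpf (−0.70), fell. The part of these cells in the levels of Ccnl1, Ccng2, Ccni and Cdkn2aipnl was not tested.

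Each of the 10 members that rose or fell was refitted under 16 alternatives that kept the 1.5-fold minimum. Ccnd1, Ccnd2, Cdk19 and Ccnl1 passed the thresholds in all 16, with changes between −1.69 and −1.39 for Ccnd1, −0.98 and −0.85 for Ccnd2, −1.34 and −1.14 for Cdk19, and 0.81 and 0.92 for Ccnl1. Ccng2, Ccnj and Cdkn2aipnl missed them in 1, a test with unequal variances (adjusted p = 0.106, 0.059 and 0.0717 by Benjamini-Hochberg, as an alternative to limma). Ccni missed them in 4, Aurka in 5 and Mcm2 in 6.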

How the data were processed

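Total RNA of pooled gastrocnemius and plantaris muscles (RIN of at least 8.0) was hybridised to 6 Affymetrix Mouse Gene 1.0 ST arrays. The authors made the deposited log2 values with RMA, run in GenePattern on probe sets of a Brainarray custom CDF (version 13) that has 1 per Entrez gene. Its genome build was not given in the sources used here. RMA corrects background and quantile normalizes, so changes are relative to the whole array, and low values are compressed. The number of arrays limits the precision.

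Probe sets were named through the platform annotation and RefSeq, and 18782 of 21212 had 1 symbol. Groups came from the sample labels. The deposited values were fitted in limma 3.58.1 (R 4.3.3; lmFit and eBayes, group only), which was first tested on simulated data. Tables and figures used Python 3.11.15, pandas 2.3.3, NumPy 2.4.6, SciPy 1.17.1 and matplotlib 3.10.9. Members past both thresholds, those nearest to them, up to 4 per role with the largest changes, and Mki67, Top2a, Cdk1 and Ccnd1 to Ccnd3 were named. Other members, among them Cdk16, Cdk10 and Ccnk, were described beyond this rule. The members (by the symbol rule), role groups and lists were chosen with earlier results of these data known. Alternatives were the methods' t-test, unequal variances, trended or robust eBayes, other fold minimums, other scalings, filters on dim probe sets, a replicate block and leaving out each array.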

Additional observations from a re-analysis of the deposited data

How the results depend on the processing

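The main fit gave 4 members that rose and 6 that fell. A test with unequal variances gave 1 and 4, no fold minimum 12 and 16, and a 2-fold minimum 0 and 2. Over all probe sets (1261 and 1049) these settings gave 760 and 621, 3041 and 3344, and 432 and 307. Leaving out 1 array gave 3 to 5 members higher and 4 to 6 lower. The members' median of −0.0659 was −0.0013 with median centring, −0.0189 with quantile normalization, −0.0064 with cyclic loess, −0.0316 among members above background, 0.0462 above the median level, and −0.0827 to −0.0543 without 1 array. The change of Ccnd3 was 0.0428 with median centring and ran from −0.1345 to 0.069 without 1 array. Of 46 counts over role groups and lists, 26 changed in at least 1 of the 16 alternatives that kept the fold minimum; those of the D-type and the transcriptional members did not. The causes were not tested.

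Control replicate 2 and C26 replicate 4 have no counterpart in the other group. With the replicate number as a block (replicate block), changes therefore rest on replicates 1 and 3 alone. The median was then −0.0521. Among the 10 members that had risen or fallen, Mcm2 (−0.57) was lost, while Cdkn2aip (0.60) and Top2a (−0.59) passed the thresholds. The block gave 2 genes that fell among the Rb family and E2F partners, 0 that rose and 4 that fell among spindle genes, and 1 that fell in ubiquitin control. Numbers 1 and 3 occur in both groups, and deviations of same-numbered arrays correlated at −0.0608 and −0.0572. The labels do not say whether same-numbered arrays were paired, and these correlations cannot settle it. Signal over background limits 10 members, which were at or under the background level in both groups.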

Other observations

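Genes that control the cycle by protein breakdown gave 3 changes. Of 20 measured genes of the SCF and APC/C ubiquitin ligases, Cul1 rose and Fbxw7 and Fzr1 fell, with a median of 0.02. Over all probe sets 5.94% rose and 4.95% fell, and counts this small cannot set the list apart from the array. Fbxw7, the F-box protein that marks cyclin E and Myc for breakdown, measured 6.62, 6.43 and 6.38 in control and 5.23, 5.50 and 5.33 in C26 pools. No pool overlapped, and Fbxw7 fell by 1.12 (SE 0.10, limma adjusted p = 8.57e-05). Fzr1 (Cdh1), the activator of APC/C in resting cells, fell by 0.60 (SE 0.08), from 7.78 to 7.90 in control to 7.16 to 7.36 in C26 pools (limma adjusted p = 0.000793). Cul1, the scaffold of SCF, rose by 0.69 (SE 0.09), from 7.98 to 8.20 to 8.64 to 8.83 (limma adjusted p = 0.000659), and did not pass with quantile normalization. Without control replicate 1 or C26 replicate 3, 1 gene of the list fell.

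Of 45 measured genes of the spindle, checkpoints and chromosomes, 27 were under the background level in both groups. In this list 1 rose and 2 fell, with a median of −0.12, where 5.94% of all probe sets rose and 4.95% fell. Wee1, the kinase that holds back Cdk1, fell by 0.67 (SE 0.14), from 6.66 to 7.17 in control to 6.05 to 6.28 in C26 pools (limma adjusted p = 0.00647). Plk3, a stress-responsive polo-like kinase, rose by 0.65 (SE 0.14), from 4.79 to 5.12 to 5.35 to 5.85 (limma adjusted p = 0.00697). Anln, which encodes the cytokinesis protein anillin, fell by 0.62 (limma adjusted p = 0.00291) under the background level. Over the 16 alternatives the number that rose ranged from 0 to 1 and the number that fell from 0 to 4. For example, none rose without control replicate 3 or C26 replicate 4, and 1 fell without control replicate 3 or C26 replicate 3.

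The difference between the shifts of Cdkn1b and Cdkn1c, inhibitors of one family, was 1.00, 0.99 and 0.89 in the C26 pools and −0.09, −0.12 and 0.21 in the control pools. It was chosen after the values were seen and was not tested.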
